A study of Mus musculus with 24 samples.

Results

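A set of 9 genes that are used to mark granule cells of the dentate gyrus were followed through the HIP and EC of the Ts65Dn mouse, a model of Down syndrome. They were Prox1, C1ql2, Dsp, Tdo2, Plk5, Pdzd2, Glis3, Stxbp6 and Calb1. They were taken by symbol from the RNA-Seq count table, and all 9 were found among its 55385 genes. RNA was measured in 24 libraries, 1 from the HIP and 1 from the EC of each of 12 male mice aged 5 to 6 months, of which 6 were Ts65Dn and 6 were wt littermates on the same F1 B6C3B background. Ts65Dn mice carry a freely segregating minichromosome in all cells, with mouse chromosome 16 from Mir155 to Zbtb21 joined to the centromeric part of chromosome 17 up to Pde10a, and none of the 9 genes lies in these regions. Library totals ranged from 23128589 to 40476492 counts on genes.

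The dentate gyrus is a subfield of the HIP. Its granule cells receive input from the EC through the perforant path and send mossy fibres to the hilus and to CA3. The EC itself holds no dentate gyrus, so a transcript made in granule cells alone would be nearly absent from it. In whole tissue, fewer cells of a type and less RNA per cell cannot be told apart.

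Genotype labels were checked with the triplicated genes of chromosome 16. The median of their levels relative to the wt mean was 1.44 to 1.54 for 5 Ts65Dn mice in HIP tissue and 1.47 to 1.54 for the same mice in EC tissue. The library labelled Ts65Dn replicate 3 had 1.02 (HIP) and 1.0 (EC), close to or within the wt ranges of 0.98 to 1.01 (HIP) and 0.981 to 1.01 (EC). Its label was not altered, and its libraries stayed in each test. Without that mouse 318 genes were called by genotype in the HIP, against 181 with it, and 480 in the EC, against 426.

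The 4 genes that set the HIP apart from the EC most clearly were Prox1, C1ql2, Dsp and Tdo2. The 250 bases before their RefSeq start sites are shown because their differences in favour of the HIP were the largest of the 9 genes in these data. All lie in the GRCm38.p6 assembly and are written in the direction of transcription. Capitals mark CAGATG, an E-box form that basic helix-loop-helix factors of the NeuroD family can bind. They also mark TATAAA, the letters of a TATA box, and both motifs were read on both strands. A match of letters does not show that a site is used, and that of Tdo2 lies at the end of its window far from the start. These windows are chr1:190170828-190171077 on the minus strand for Prox1 (the outer of its 2 listed starts), chr1:120340332-120340581 on the plus strand for C1ql2, chr13:38151044-38151293 on the plus strand for Dsp and chr3:81975729-81975978 on the minus strand for Tdo2.
Prox1: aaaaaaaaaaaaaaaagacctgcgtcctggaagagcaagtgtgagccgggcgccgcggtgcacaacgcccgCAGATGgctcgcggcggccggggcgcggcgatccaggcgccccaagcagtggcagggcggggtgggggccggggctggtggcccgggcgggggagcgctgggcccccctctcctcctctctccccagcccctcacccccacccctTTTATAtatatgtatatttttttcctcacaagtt
C1ql2: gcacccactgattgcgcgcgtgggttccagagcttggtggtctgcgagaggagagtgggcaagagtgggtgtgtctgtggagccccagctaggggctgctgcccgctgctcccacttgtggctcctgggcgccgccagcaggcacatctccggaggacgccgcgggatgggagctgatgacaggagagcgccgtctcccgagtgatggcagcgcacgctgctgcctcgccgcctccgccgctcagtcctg
Dsp: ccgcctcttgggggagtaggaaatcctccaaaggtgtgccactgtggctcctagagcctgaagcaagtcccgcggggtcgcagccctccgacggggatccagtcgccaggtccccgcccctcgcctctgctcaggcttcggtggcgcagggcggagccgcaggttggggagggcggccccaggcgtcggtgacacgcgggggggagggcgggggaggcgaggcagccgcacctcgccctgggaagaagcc
Tdo2: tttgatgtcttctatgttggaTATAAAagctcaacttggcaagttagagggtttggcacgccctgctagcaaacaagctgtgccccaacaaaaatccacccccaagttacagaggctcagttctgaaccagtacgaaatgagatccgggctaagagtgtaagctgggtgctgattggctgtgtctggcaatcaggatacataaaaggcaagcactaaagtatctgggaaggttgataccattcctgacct
CAGATG stood in 1 of the 9 windows listed for 8 of the genes, the outer one of Prox1, and in 14.4% of all 32851 promoter windows of the same length. TATAAA stood in 2 of the 9, those of Prox1 and Tdo2, and in 12.4% of all windows. The letters thus gave no motif common to the 4 genes. The windows of C1ql2 (68.8% GC) and Dsp (72.4%) held neither motif, and that of Tdo2 had the lowest GC content of the 9 (46.4%), against a median of 52.4% over all windows.

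The region comparison asked how far each gene was particular to the HIP. Levels are given in CPM, reads scaled to the library total, after scaling by the TMM method, and regions were compared within mice by edgeR's quasi-likelihood test with a term for each mouse. A gene was called when its Benjamini-Hochberg adjusted p-value over all genes tested was under 0.05. Of 17196 genes tested in wt, 31.0% were called higher in the HIP and 30.3% lower. In Ts65Dn, 26.6% of 17314 genes were called higher and 25.7% lower. All 9 genes passed the filter on low counts in each comparison. Of these, 6 were called higher and 2 lower in the wt HIP, and 5 higher and 3 lower in the Ts65Dn HIP. Dsp, C1ql2, Tdo2, Prox1 and Glis3 were higher in the HIP of every mouse, with no overlap between regions. The share of all genes without overlap between regions was not computed, so how far this sets the members apart is unknown. Some markers of other cells were higher in the HIP too. Among them were Fibcd1 of CA pyramidal cells (log2 difference 3.49 in wt), Mog of oligodendrocytes (2.13) and Ttr of the choroid plexus (6.84). Of the 7 CA pyramidal genes, 4 were called higher and 3 lower in the wt HIP. All 3 oligodendrocyte genes and all 5 choroid plexus genes were called higher. A higher level in the HIP thus does not by itself mark granule cells. Stxbp6 and Plk5 had similar levels in both regions, and Calb1 and Pdzd2 were higher in the EC of every mouse.

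Prox1 (ENSMUSG00000010175, chr1:190118035-190170714 in GRCm38, minus strand) encodes a homeodomain transcription factor that specifies granule cells and maintains their identity. In the HIP it ranged from 129 to 162 CPM in wt (median 143) and from 107 to 176 CPM in Ts65Dn (median 120). Its EC levels ranged from 12.2 to 14.7 CPM in wt (median 12.7) and from 10.8 to 14.2 CPM in Ts65Dn (median 11.8). Every HIP library thus lay far above every EC library, and the EC level was 9.07% ± 0.83 of the HIP level of the same mouse in wt (SD, n = 6) and 9.91% ± 2.35 in Ts65Dn. The log2 difference was 3.47 ± 0.05 in wt (SE, edgeR adjusted p = 2.06e-10) and 3.36 ± 0.12 in Ts65Dn (edgeR adjusted p = 2.19e-08). An antisense gene, Prox1os, overlaps it and held 1961 counts over all libraries against 53657 for Prox1. The strand setting of the counting was not given in the sources used here.

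Dsp (ENSMUSG00000054889, chr13:38151294-38198577, plus strand) encodes desmoplakin, which ties intermediate filaments to desmosomes. It showed the largest region difference of the 9 genes in wt, with 57.2 to 113 CPM in the HIP (median 77.9) and 0.403 to 1.03 CPM in the EC (median 0.776). In Ts65Dn it ranged from 57.3 to 121 CPM in the HIP (median 69.7) and from 0.495 to 2.25 CPM in the EC (median 1.45). The EC values rest on 11 to 31 reads in wt and 12 to 70 reads in Ts65Dn. The log2 difference was 6.78 ± 0.12 in wt, rank 7 from the top of all genes tested (edgeR adjusted p = 6.44e-10), and 5.77 ± 0.17 in Ts65Dn (edgeR adjusted p = 7.24e-09).

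C1ql2 (ENSMUSG00000036907, chr1:120340582-120343174, plus strand) encodes a secreted C1q-like protein of the mossy fibre synapse that binds neurexin 3 and kainate receptors. Its level in the HIP was 39.1 to 69.5 CPM in wt (median 54.7) and 49.9 to 118 CPM in Ts65Dn (median 65.9). In the EC it was 0.509 to 1.67 CPM in wt (median 0.875) and 0.492 to 1.11 CPM in Ts65Dn (median 1.06), from 14 to 45 and 18 to 33 reads. The EC level was 1.96% ± 1.30 of that in the HIP in wt and 1.35% ± 0.60 in Ts65Dn. The log2 difference was 5.77 ± 0.21 in wt (edgeR adjusted p = 1.53e-08) and 6.31 ± 0.16 in Ts65Dn (edgeR adjusted p = 4.06e-09), ranks 19 and 5 from the top of all genes tested.

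Tdo2 (ENSMUSG00000028011, chr3:81957090-81976202, minus strand) encodes tryptophan 2,3-dioxygenase, which opens the kynurenine pathway. It was a low transcript even in the HIP, at 8.47 to 11.7 CPM in wt (median 9.48) and 6.38 to 8.87 CPM in Ts65Dn (median 7.17). In the EC it stood at 0.660 to 1.04 CPM in wt (median 0.817) and at 0.434 to 0.836 CPM in Ts65Dn (median 0.717). The log2 difference was 3.54 ± 0.12 in wt (edgeR adjusted p = 1.09e-08) and 3.38 ± 0.14 in Ts65Dn (edgeR adjusted p = 4.26e-08).

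Glis3 (ENSMUSG00000052942, chr19:28258851-28680077, minus strand) encodes a Krüppel-like zinc finger transcription factor. It was also a gene without overlap in favour of the HIP, but with a smaller difference: 11.2 to 19.3 CPM in the wt HIP (median 15.4) against 5.68 to 7.53 CPM in the wt EC (median 6.09). In Ts65Dn it ranged from 14.3 to 19.1 CPM in the HIP (median 15.4) and from 6.87 to 8.12 CPM in the EC (median 7.47). The EC held 43.2% ± 6.2 of the HIP level in wt and 47.4% ± 6.5 in Ts65Dn. The log2 difference was 1.22 ± 0.08 in wt (edgeR adjusted p = 5.41e-07) and 1.08 ± 0.09 in Ts65Dn (edgeR adjusted p = 3.7e-06).

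The other 4 genes were not particular to the HIP. Calb1 (ENSMUSG00000028222, chr4:15881264-15908064, plus strand) encodes calbindin, a cytosolic calcium buffer that mature granule cells contain in quantity, as do other neurons. It was 127 to 149 CPM in the wt HIP (median 133) and 223 to 260 CPM in the wt EC (median 245), so the EC held 180% ± 13.3 of the HIP level. In Ts65Dn the HIP ranged from 97.2 to 130 CPM (median 110) and the EC from 186 to 214 CPM (median 194), again 180% ± 21.6. Its log2 difference, HIP minus EC, was -0.85 ± 0.04 in wt (edgeR adjusted p = 8.18e-08) and -0.85 ± 0.06 in Ts65Dn (edgeR adjusted p = 1.85e-06).

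Pdzd2 (ENSMUSG00000022197, chr15:12359711-12739924, minus strand), which encodes a large protein with several PDZ domains, was 54.1 to 65.3 CPM in the wt HIP (median 58.7) and 77.7 to 99.4 CPM in the wt EC (median 89.4). In Ts65Dn it was 40.6 to 71.1 CPM in the HIP (median 57.2) and 79.7 to 105 CPM in the EC (median 93.4). The regions did not overlap in either genotype, with log2 differences of -0.59 ± 0.05 in wt (edgeR adjusted p = 4.14e-06) and -0.71 ± 0.10 in Ts65Dn (edgeR adjusted p = 0.00021).

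Stxbp6 (ENSMUSG00000046314, chr12:44852484-45074709, minus strand) encodes amisyn, a syntaxin-binding protein with a SNARE-like domain. The wt HIP ranged from 154 to 217 CPM (median 187) and the wt EC from 139 to 177 CPM (median 169), with overlap between the regions. In Ts65Dn the HIP ranged from 128 to 237 CPM (median 156) and the EC from 114 to 180 CPM (median 134). The log2 difference of 0.18 ± 0.05 was called in wt (edgeR adjusted p = 0.00703), where the HIP was higher in 5 of 6 mice, but not in a fit without the mouse term (edgeR adjusted p = 0.0678). In Ts65Dn it was 0.25 ± 0.12 (edgeR adjusted p = 0.0981), with the HIP higher in 4 of 6 mice.

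Plk5 (ENSMUSG00000035486, chr10:80356459-80365489, plus strand) encodes a polo-like kinase family member that lacks a complete kinase domain and is expressed in brain. It ranged from 13.0 to 23.9 CPM in wt HIP tissue (median 17.8), against 14.1 to 18.7 CPM in wt EC tissue (median 15.9). In Ts65Dn it ranged from 13.9 to 20.8 CPM in the HIP (median 16.7) and from 18.9 to 22.0 CPM in the EC (median 19.8). The log2 difference was 0.17 ± 0.10 in wt (edgeR adjusted p = 0.163) and -0.25 ± 0.10 in Ts65Dn (edgeR adjusted p = 0.0455). The second was called, with the HIP lower in 4 of 6 mice, but it was called in only 2 of 6 fits that left out 1 mouse each, those without replicate 2 or 4. In wt it was called only without replicate 6 (edgeR adjusted p = 0.0333).

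**Figure D1:**
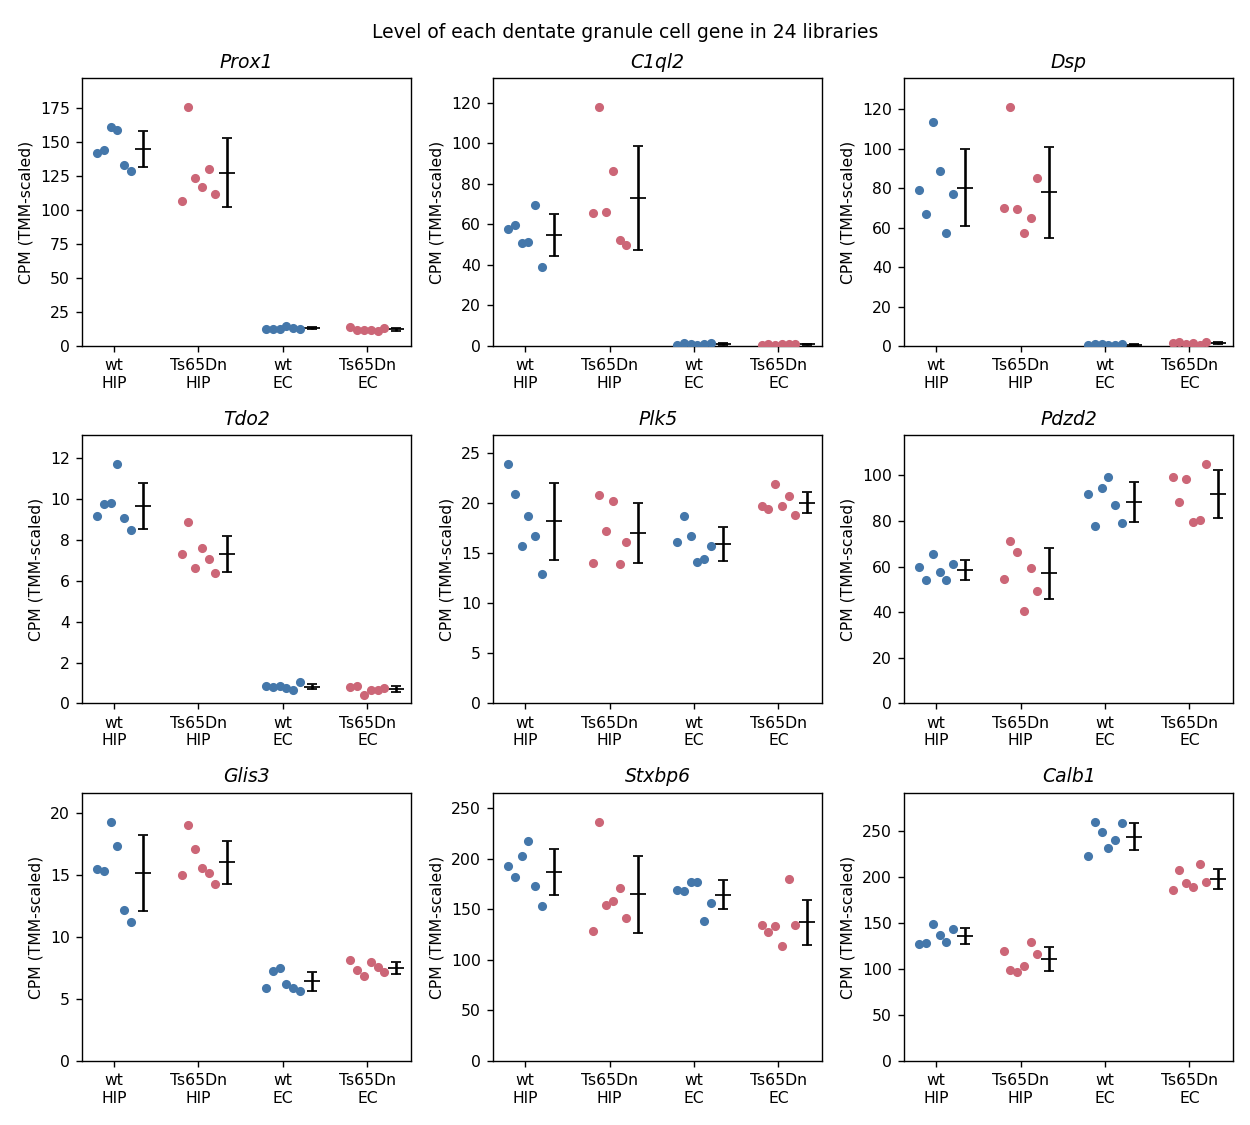
Level of the 9 genes in each library, in TMM-scaled CPM on linear axes that start at 0 (blue, wt, red Ts65Dn, 6 mice a group, black bars mean ± SD). Prox1, C1ql2, Dsp and Tdo2 are near the bottom of the axis in the EC, whereas Calb1 and Pdzd2 are higher there than in the HIP, and Ts65Dn replicate 2 is the highest HIP library for Prox1 at 176 CPM.

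**Figure D2:**
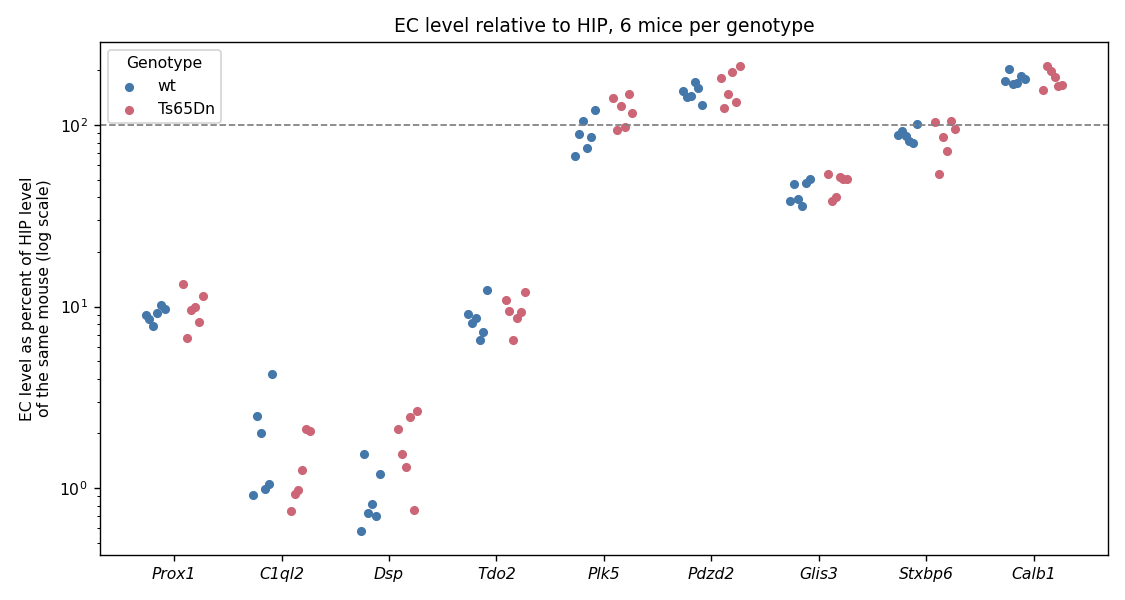
EC level as a percent of the HIP level of the same mouse for each gene, on a log axis (blue, wt, red Ts65Dn, 1 point per mouse, dashed line at equal levels). Dsp and C1ql2 lie between 0.577% and 4.28%, Prox1 and Tdo2 between 6.52% and 13.4%, Glis3 between 35.9% and 54.0%, and Calb1 and Pdzd2 above 100% in every mouse.

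Levels of different genes were compared per kilobase of merged exons. On that scale the order in the wt HIP was Stxbp6 (35.3 ± 4.3 CPM per kb, SD), Calb1 (28.0 ± 1.9), C1ql2 (27.4 ± 5.1), Prox1 (17.3 ± 1.6), Dsp (8.31 ± 2.01), Plk5 (6.80 ± 1.45), Pdzd2 (3.19 ± 0.24), Tdo2 (2.49 ± 0.29) and Glis3 (1.72 ± 0.35). The ranges of Stxbp6 and Calb1 overlapped, as did those of Calb1 and C1ql2, of Dsp and Plk5, of Pdzd2 and Tdo2, and of Tdo2 and Glis3. In the wt EC Calb1 led with 50.4 ± 3.1 CPM per kb, followed by Stxbp6 with 31.1 ± 2.8, and neither overlapped with its lower neighbour. At the lower end were Tdo2 with 0.213 ± 0.033 and Dsp with 0.0752 ± 0.0261 CPM per kb. The order thus differed between regions mainly through C1ql2 and Dsp, which moved from places 3 and 5 in the HIP to 7 and 9 in the EC.

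The genotype comparison asked whether these genes differed between Ts65Dn and wt within a region. In the HIP none of the 9 was called, against a background of 1.04% of 17355 genes tested (edgeR). In the EC 2 of the 9 were called, against 2.50% of 17049 genes. Calb1 fell and Plk5 rose in the Ts65Dn EC, to 0.81 and 1.25 times the wt level in the fit, and both calls were lost once the GC content and length trends of the libraries were removed. These were also the only members whose 6 Ts65Dn and 6 wt libraries did not overlap, a pattern that 2.46% of genes showed in the EC and 1.67% in the HIP, where no member showed it.

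In the EC, Calb1 was 223 to 260 CPM in wt (median 245) and 186 to 214 CPM in Ts65Dn (median 194). Every mouse labelled Ts65Dn thus lay below every wt mouse. This included the mouse labelled Ts65Dn replicate 3, at 194 CPM, whose triplicated genes were at the wt level. The log2 fold change was -0.31 ± 0.05 (edgeR adjusted p = 0.00922), and the gene was called in each of the 12 fits that left out 1 mouse (adjusted p from 0.0099, without the library labelled Ts65Dn replicate 3, to 0.031). In the HIP it was 127 to 149 CPM in wt and 97.2 to 130 CPM in Ts65Dn, where 5 of the 6 Ts65Dn mice lay below the lowest wt mouse. The log2 fold change there was -0.29 ± 0.07 (edgeR adjusted p = 0.0767). Of the 12 HIP fits that left out 1 mouse, Calb1 passed in 1, without Ts65Dn replicate 5 (edgeR adjusted p = 0.0335). It also passed in DESeq2 (adjusted p = 0.00774), which called 4.62% of HIP genes and 8.72% of EC genes. The lowest HIP level, 97.2 CPM, was that of the mouse labelled Ts65Dn replicate 3. Without that mouse the log2 fold change in the HIP was -0.26 (edgeR adjusted p = 0.0847).

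Plk5 in the EC was 14.1 to 18.7 CPM in wt (median 15.9) and 18.9 to 22.0 CPM in Ts65Dn (median 19.8). The highest wt mouse and the lowest Ts65Dn mouse were thus close together. The highest level, 22.0 CPM, was that of the mouse labelled Ts65Dn replicate 3, whose triplicated genes were at the wt level. The log2 fold change was 0.32 ± 0.07 (edgeR adjusted p = 0.0323), but the gene was called in only 3 of the 12 fits that left out a mouse, those that dropped wt replicate 2 or Ts65Dn replicates 3 or 6, 1 at a time (adjusted p over all 12 from 0.0139 to 0.0787). It was also not called without a filter on low counts (edgeR adjusted p = 0.0568). In the HIP the log2 fold change was -0.10 ± 0.15 (edgeR adjusted p = 0.804), with overlapping groups.

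The base composition of these transcripts and the GC trends of the libraries are set beside both calls. Calb1 has the lowest GC content of the 9 genes (36.8%, above 1.31% of the genes tested in the EC) and Plk5 one of the highest (61.4%, above 97.8%), whereas the median gene has 49.6%. The slope of a library's log2 level on GC content, relative to the mean of its region, ran from -0.0127 to 0.000219 per percentage point in the wt EC and from -0.00201 to 0.0178 in the Ts65Dn EC, with medians of -0.00619 and 0.00553. In the HIP it ran from -0.0121 to 0.00277 in wt and from -0.00297 to 0.0118 in Ts65Dn. GC-rich transcripts thus tended to be higher in libraries labelled Ts65Dn and GC-poor ones lower. The steepest EC slope, 0.0178, was that of the mouse labelled Ts65Dn replicate 3, whose triplicated genes were at the wt level. The next was 0.0117, in Ts65Dn replicate 1. With a GC and length trend removed from each library, an alternative chosen after seeing the data, 0.827% of genes were called in the EC and 0.432% in the HIP, and none of the 9. Calb1 in the EC was then at -0.10 (edgeR adjusted p = 0.547) and Plk5 at 0.16 (edgeR adjusted p = 0.285). A genotype effect that itself follows GC content cannot be told apart from such a trend.

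Tdo2 was the member nearest to the threshold in the HIP. It ranged from 8.47 to 11.7 CPM in wt and from 6.38 to 8.87 CPM in Ts65Dn, with only Ts65Dn replicate 2 above the lowest wt mouse. The log2 fold change was -0.41 ± 0.10 (edgeR adjusted p = 0.0727). It passed without Ts65Dn replicate 2 (edgeR adjusted p = 0.0459) and in DESeq2 (adjusted p = 0.00772), and was -0.31 with GC and length removed (edgeR adjusted p = 0.204). In the EC it was -0.25 ± 0.19 (edgeR adjusted p = 0.512).

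C1ql2 was 39.1 to 69.5 CPM in the wt HIP and 49.9 to 118 CPM in the Ts65Dn HIP, with Ts65Dn replicate 2 highest. Its log2 fold change was 0.41 ± 0.20 (edgeR adjusted p = 0.346), and without that mouse it was 0.22 (edgeR adjusted p = 0.512). In the EC it was -0.13 ± 0.32 (edgeR adjusted p = 0.869).

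Dsp in the EC was higher on average in Ts65Dn, at 1.4 ± 0.64 CPM against 0.727 ± 0.252 CPM in wt, but the groups overlapped and Ts65Dn replicates 3 and 5 lay within the wt range. The log2 fold change was 0.94 ± 0.32 (edgeR adjusted p = 0.130), and leaving out 1 mouse gave adjusted p-values between 0.0565 and 0.231. Within the HIP, where the gene is abundant, it was -0.04 ± 0.18 (edgeR adjusted p = 0.943).

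The remaining 4 genes did not pass in either region. Stxbp6 was 165 ± 15 CPM in the wt EC and 137 ± 22 CPM in the Ts65Dn EC, a log2 fold change of -0.27 ± 0.09 (edgeR adjusted p = 0.133). It was called only without Ts65Dn replicate 5, its highest Ts65Dn library in the EC (edgeR adjusted p = 0.0196). In the HIP its log2 fold change was -0.18 ± 0.13 (edgeR adjusted p = 0.553). Prox1 was at -0.19 ± 0.11 in the HIP (edgeR adjusted p = 0.462) and -0.11 ± 0.08 in the EC (edgeR adjusted p = 0.503). With Ts65Dn replicate 2 left out, the Prox1 difference in the HIP was -0.30 (edgeR adjusted p = 0.0731). Glis3 was at 0.08 ± 0.12 in the HIP and 0.22 ± 0.09 in EC tissue (edgeR adjusted p = 0.816 and 0.216), and Pdzd2 at -0.04 ± 0.11 and 0.05 ± 0.08 (edgeR adjusted p = 0.894 and 0.806). In a simulation with genes changed 1.5-fold, 57% were recovered by edgeR for HIP libraries and 58.5% for EC libraries, so that a gene without a call can still differ.

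**Figure D3:**
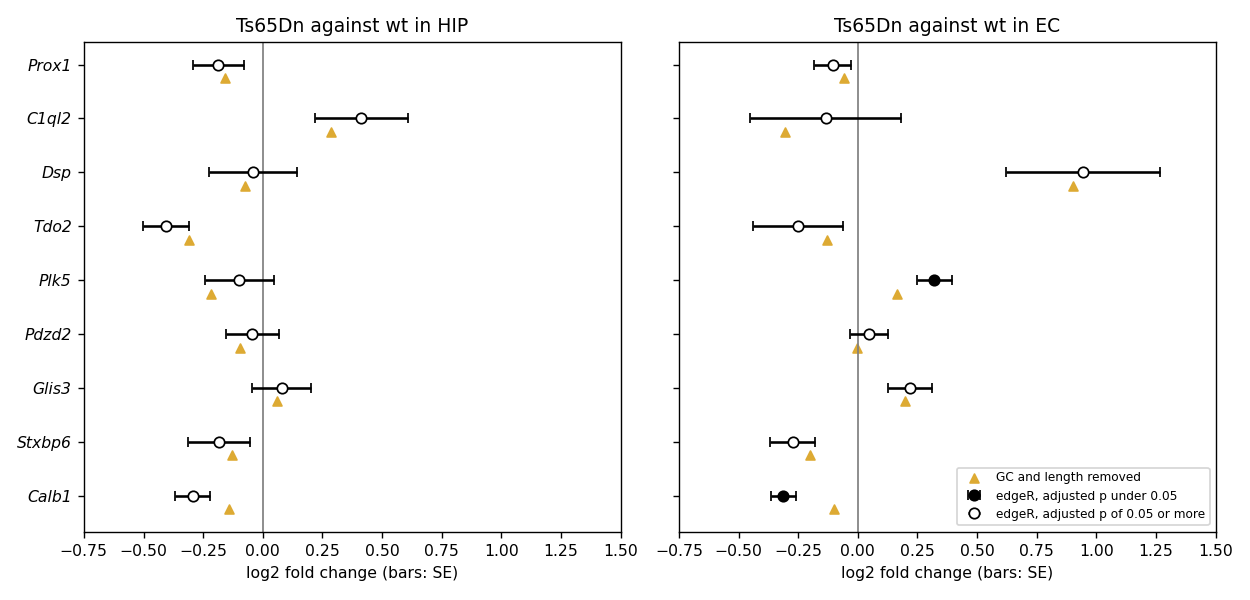
Log2 fold change of Ts65Dn against wt for each gene in the HIP (left) and EC (right), with SE bars (filled circles, adjusted p under 0.05, and triangles, values with GC and length removed). Only Calb1 and Plk5 in the EC are filled, and their triangles at -0.10 and 0.16 lie nearer to 0 than their circles at -0.31 and 0.32.

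Whether the genotype difference itself differed between regions was tested as an interaction over all 24 libraries with a term for each mouse. None of the 18109 genes was called (0%, edgeR), while 742 had an unadjusted p under 0.05, and DESeq2 called 0 with 503. Of the 9 genes, 2 had an unadjusted p under 0.05. For Dsp the Ts65Dn effect was lower in the HIP than in the EC by a log2 difference of -1.01 ± 0.28 (edgeR adjusted p = 1.0). For Plk5 it was -0.42 ± 0.15 (edgeR adjusted p = 1.0). Without a filter on low counts, where 0.101% of 36766 genes were called, Dsp was called (edgeR adjusted p = 0.00159). For Calb1 the interaction was 0.01 ± 0.08, with a 95% interval from -0.145 to 0.159.

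To see whether the genes varied together between mice, log2 CPM of Prox1 was compared with that of each other gene over the 12 mice of a region, in 16 relations, with p-values from a permutation test of 100000 resamples. Only 2 relations passed after adjustment, both in the HIP. Prox1 was compared only with the other members, so the share of all HIP genes that follow it as closely is unknown. Stxbp6 followed Prox1 closely there (r = 0.974, p = 1e-05, the smallest that the resamples can give, adjusted p = 0.00016; rho = 0.958, p = 3e-05, adjusted p = 0.00048). The relation was seen within wt (r = 0.928) and within Ts65Dn (r = 0.985), and without the 2 mice farthest from the median Prox1 level r was 0.949 (adjusted p = 0.00096). In the EC r was 0.08 (p = 0.803, adjusted p = 0.857) and rho 0.22 (p = 0.485, adjusted p = 0.647).

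Tdo2 also followed Prox1 in the HIP (r = 0.767, permutation p = 0.00362, adjusted p = 0.029; rho = 0.790, p = 0.00348, adjusted p = 0.0278). Within wt r was 0.814 and rho 0.943. Within Ts65Dn r was 0.759 but rho only 0.371, with replicate 2 the highest Ts65Dn library for both genes. Without the 2 farthest mice r was 0.884 (permutation adjusted p = 0.00816). In the EC r was 0.239 (permutation p = 0.455, adjusted p = 0.644) and rho 0.105 (p = 0.747, adjusted p = 0.799). Tdo2 rested there on 18 to 31 reads in wt and 12 to 29 reads in Ts65Dn. Over the other HIP genes r ran from 0.203 for Calb1 to 0.670 for Dsp, whose permutation p was 0.0171 and adjusted p 0.0912. Glis3 had r = 0.972 within wt and 0.863 within Ts65Dn but 0.537 over both (permutation p = 0.0721, adjusted p = 0.144). In the EC r ran from -0.635 for Plk5 (permutation p = 0.0257, adjusted p = 0.0965) to 0.574 for Pdzd2 (permutation p = 0.0524, adjusted p = 0.120). With GC and length removed 4 relations passed: Stxbp6 (r = 0.966), Tdo2 (0.765) and Plk5 (0.803) in the HIP and C1ql2 in the EC (-0.715). These mice share dissection and library steps with their region, and how much dentate gyrus each HIP sample held was not measured.

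**Figure D4:**
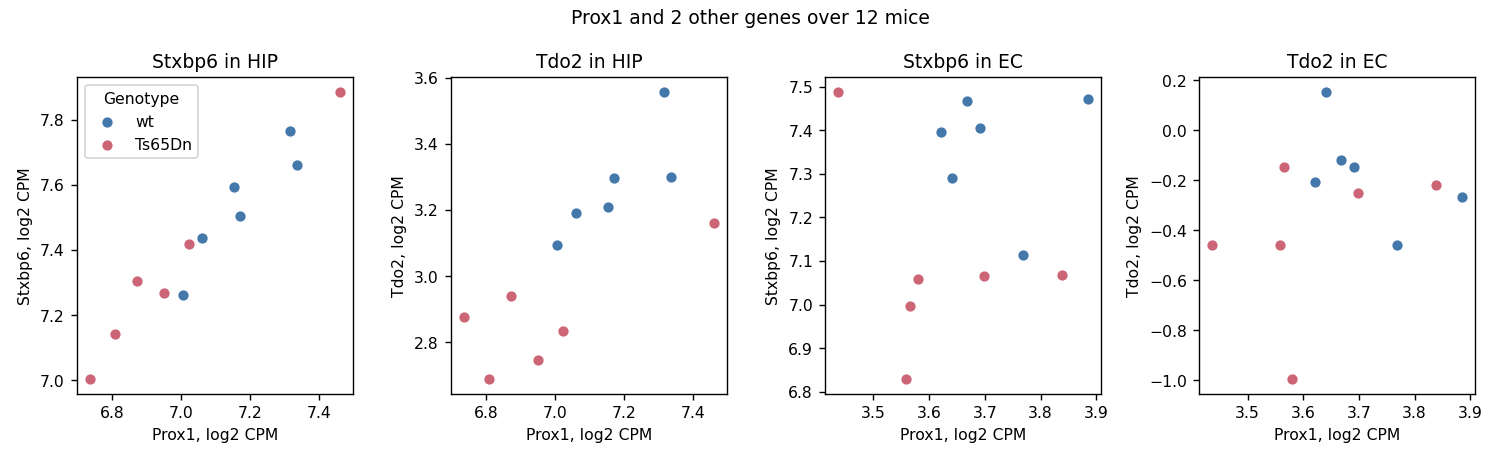
Log2 CPM of Stxbp6 and Tdo2 against that of Prox1 over 12 mice in the HIP (left pair) and EC (right pair), blue wt and red Ts65Dn. The HIP points of Stxbp6 lie close to 1 line (r = 0.974), with Ts65Dn replicate 2 at the upper end, whereas the EC points do not (r = 0.08).

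The genes whose levels over the 12 libraries were most like the mean standardised level of the 9 genes were listed as a description. Among 14948 genes of the HIP these included Ermp1 (r = 0.950), Plekha2 (0.933), Rbbp4 (0.912) and Ikbkg (0.909). Among 14690 genes of the EC they were Lpp (r = 0.856), Spag5 (0.812), Inca1 (0.810), Tbc1d20 (0.797) and Ovca2 (0.789). The libraries differ in depth and GC trend, and the part of these in the list was not tested.

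Genes of related function were read beside the members from 8 lists. The 7 other genes known from granule cells, such as the lactase gene Lct, were all called higher in the HIP in both genotypes. Their median log2 difference was 1.49 in wt and 1.42 in Ts65Dn, against 0.00 for all genes tested. Lct was 73.9 ± 7.6 CPM in the wt HIP and 1.07 ± 0.33 CPM in the wt EC (log2 difference 6.11 ± 0.12). None was called by genotype in the HIP or EC, with median log2 fold changes of -0.11 and 0.01.

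Of 10 transcription factors of granule and related neurons, 8 were called higher and 1 lower in the HIP of both genotypes, with a median log2 difference of 0.71 in wt. The largest differences were those of Zbtb20, a zinc finger repressor of hippocampal development (342 ± 68 against 63.7 ± 5.7 CPM, 2.40 ± 0.09), and Neurod6 (307 ± 18 against 85.0 ± 8.3 CPM, 1.85 ± 0.05). By genotype none was called in the HIP, and 1 was called in the EC. This was Klf9, a glucocorticoid- and thyroid hormone-responsive factor, which fell from 251 ± 38 CPM in wt to 185 ± 23 CPM in Ts65Dn (log2 fold change -0.46 ± 0.10, edgeR adjusted p = 0.0348). With GC and length removed its log2 fold change was nearly the same, at -0.45, and its adjusted p was 0.071.

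Of 6 partners of the mossy fibre synapse, where C1ql2 acts, 2 were called higher and 3 lower in the HIP of both genotypes. The kainate receptor gene Grik4 was at 60.0 ± 3.8 against 25.4 ± 3.0 CPM (1.24 ± 0.07), and the zinc transporter gene Slc30a3 at 60.8 ± 9.6 against 120 ± 12.6 CPM (-0.98 ± 0.08). The median was -0.22 in wt and -0.19 in Ts65Dn. By genotype, Grik5 rose in the EC from 186 ± 10 to 217 ± 12 CPM (0.21 ± 0.05, edgeR adjusted p = 0.0360), and with GC and length removed it was 0.06 (adjusted p = 0.583). None was called in the HIP.

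Dsp has further desmosome genes beside it, of which 8 of 12 were tested between regions. Of these, 5 were called higher and 0 lower in the wt HIP, and 4 higher and 1 lower in the Ts65Dn HIP, with medians of 0.87 and 0.80. Pkp2, a plakophilin that binds desmoplakin, was at 27.6 ± 2.6 CPM in the wt HIP and 2.37 ± 0.28 in the wt EC (3.53 ± 0.08), and the periplakin gene Ppl at 3.0 ± 0.59 and 0.724 ± 0.365 CPM (2.09 ± 0.22). Jup, the gene of plakoglobin, was called higher in Ts65Dn in both regions. It was at 44.1 ± 1.8 against 35.8 ± 2.4 CPM in the HIP (0.30 ± 0.05, edgeR adjusted p = 0.0191) and at 47.8 ± 4.5 against 37.9 ± 3.7 CPM in the EC (0.33 ± 0.08, edgeR adjusted p = 0.0392). With GC and length removed the log2 fold changes were 0.20 in both regions, and neither was called (adjusted p = 0.223 and 0.187). The list's genotype medians were 0.07 in the HIP (8 tested) and 0.34 in the EC (9 tested).

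Of 11 further enzymes of the kynurenine pathway, 5 were tested between regions, with 2 called higher and 1 lower in the HIP of both genotypes and a median of 0.43 in wt. Afmid was at 0.268 ± 0.107 CPM in the wt HIP and 0.871 ± 0.257 in the wt EC (-1.71 ± 0.29), and Ido2 at 1.87 ± 0.25 and 1.06 ± 0.26 CPM (0.82 ± 0.17). None of the 4 tested in the HIP or the 6 tested in the EC was called by genotype (medians 0.06 and 0.10).

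Of the polo-like kinases Plk1 to Plk4, 3 were tested in wt, where 1 was called higher in the HIP and 2 lower. In wt, Plk3 was at 5.19 ± 1.21 against 7.93 ± 1.94 CPM (-0.61 ± 0.10) and Plk4 at 3.96 ± 0.27 against 4.60 ± 0.24 CPM (-0.22 ± 0.08). In Ts65Dn 0 were called higher and 2 lower of 4 tested. By genotype none was called among 4 tested in the HIP and 3 in the EC (medians 0.09 and -0.07), so that the call of Plk5 in the EC had no counterpart among them.

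Of 6 other neuronal calcium-binding proteins, 3 were called higher and 2 lower in the wt HIP, and 2 and 2 in the Ts65Dn HIP, with medians of 0.21 and 0.01. Secretagogin (Scgn) was at 2.37 ± 0.50 CPM in the wt HIP and 0.117 ± 0.085 in the wt EC (4.27 ± 0.31), and hippocalcin (Hpca) at 1878 ± 132 and 490 ± 40 CPM (1.93 ± 0.04). By genotype none of 6 was called in the HIP or of 5 in the EC (medians -0.09 and -0.08). Of 7 SNARE-related genes beside Stxbp6, 1 was called higher and 5 lower in the wt HIP, and 1 and 4 in the Ts65Dn HIP, with medians of -0.37 and -0.35. Stx1a, a plasma membrane SNARE, was at 79.4 ± 13.7 against 353 ± 18 CPM (-2.17 ± 0.10). None was called by genotype (medians 0.10 in the HIP and 0.04 in the EC).

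Markers of other cell types were read in the same libraries, 43 genes in 10 lists, of which those that passed are named after their values were seen. By genotype 1 was called in the HIP, the microglial gene P2ry12, which fell (log2 fold change -0.27 ± 0.06, edgeR adjusted p = 0.0422). In the EC 3 were called. P2ry12 (-0.45 ± 0.09, edgeR adjusted p = 0.0226) and the thalamic marker Rora (-0.28 ± 0.07, edgeR adjusted p = 0.0362) fell. Drd2, listed as a hilar mossy cell marker, rose (1.56 ± 0.33, edgeR adjusted p = 0.0254). Between regions, Drd2 was called higher in the wt HIP, at 2.50 ± 0.70 against 1.33 ± 0.55 CPM in the wt EC (edgeR adjusted p = 0.00124). In Ts65Dn, Drd2 was at 3.93 ± 1.89 CPM in the EC and 2.71 ± 0.39 CPM in the HIP, a difference that was not called (edgeR adjusted p = 0.136). No other gene of these 3 lists was called by genotype in the region concerned. The microglial genes Cx3cr1 and Csf1r were at 0.05 and -0.04 (log2 fold change) in the HIP and at -0.05 and -0.11 in the EC, the thalamic genes Tcf7l2 and Prkcd at -0.17 and 0.10 in the EC, and the mossy cell genes Calcrl and Csf2rb2 at -0.26 and 0.44 in the EC. With GC and length removed none was called, but Drd2 in the EC kept a log2 fold change of 1.48 (adjusted p = 0.0563). P2ry12 was then at -0.16 (HIP) and -0.31 (EC). Rora was at -0.16 in the EC. The summed level of the CA pyramidal list was 797 to 897 CPM in the wt HIP and 690 to 943 CPM in the Ts65Dn HIP, whereas that of the cortical excitatory list was 141 to 241 CPM in the wt HIP against 614 to 765 CPM in the wt EC. The choroid plexus list varied most between HIP samples, from 92.6 to 4880 CPM in wt and from 55.4 to 5200 CPM in Ts65Dn, and from 8.49 to 51.0 CPM in the EC. Its part in the values of the 9 genes was not tested.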

How the data were processed

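The authors sequenced single-end reads of 50 bases, aligned them with Hisat2 to GRCm38 (Ensembl release 99) and deposited raw counts per gene from HTSeq-count, without normalization. The strand setting was not given in the sources used here. The labels name a stranded mRNA kit, whereas in the methods a kit for total RNA is followed by extraction of polyA RNA. The authors' tables of their own comparisons, which hold fold changes, scores and p-values, were not used, and the Ts66Yah libraries were not analysed here. Groups, replicate numbers and mice came from the labels. Gene positions came from GENCODE vM21, which held 99.6% of the identifiers. Replicates are separate mice, and no 2 libraries held identical counts.

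Counts of the whole table were tested with edgeR 4.0.16 (R 4.3.3) with filterByExpr, TMM scaling and Benjamini-Hochberg adjustment over all genes tested. The SE is the absolute log2 fold change divided by the square root of F. Regions were compared with a term for each mouse, since the HIP and EC of a number are from the same animal (correlation of their deviations from the group means 0.178 to 0.426 over 12 mice). Correlations were run on log2 CPM (prior count 2) with two-sided permutation tests and adjustment over 16 relations for each coefficient (scipy 1.17.1). Results were recomputed with DESeq2 1.42.0, with its size factors in edgeR, with no filter, at least 10 counts in every sample, the replicate block or its omission, each mouse left out, a prior count of 0.5 and, for Prox1, the 2 farthest mice left out. Removal of GC content and length by splines with 5 degrees of freedom each was chosen after seeing the data. It covered 99.9% of the genes tested in the HIP. The methods were tested on simulated data. In each comparison 200 genes were changed 1.5-fold, and 69.5% were recovered for the regions in wt, 67.5% in Ts65Dn and 45% for the interaction.

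The 9 genes, the 8 lists and the marker lists were chosen with earlier results of these data known. From each list, genes passing a genotype test and the 2 with the largest region difference in wt were named. The 5 genes most like the members in a region were taken among those with a mean of at least 1 CPM. A few genes that these rules select are not reported here. Promoter windows were RefSeq sequences of GRCm38.p6, which matched 8 of the 9 genes.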

Additional observations from a re-analysis of the deposited data

Results flagged for a closer look

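In each group of 6 libraries, the highest and lowest level of each gene was compared with its nearest neighbour. A gap of more than 0.625 of the group's range was found in 2 of 36 groups, and chance alone gives about 1 in 20 groups. Prox1 in the Ts65Dn HIP was at 176.2 CPM in replicate 2, against 130.0 CPM in the next library (gap 0.663 of the range). Stxbp6 in the Ts65Dn EC was at 179.5 CPM in replicate 5, against 134.1 CPM in the next (gap 0.689 of the range). The same Ts65Dn replicate 2 was also the highest Ts65Dn library of the HIP for C1ql2, Dsp, Tdo2, Plk5, Pdzd2, Glis3 and Stxbp6, but not for Calb1. Its summed choroid plexus markers, at 2460 CPM, lay within the range of the other HIP libraries, and its summed oligodendrocyte markers, at 8090 CPM, were the highest of the 12. Their part in its values was not tested.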

How the results depend on the processing

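For Ts65Dn against wt in the HIP, 181 genes were called in all and 0 of the 9. DESeq2 called 662 and 2, a replicate block 29 and 0, and removal of GC and length 75 and 0. Leaving out 1 mouse gave 54 (Ts65Dn replicate 6) to 318 genes (the mouse labelled Ts65Dn replicate 3) and 0 to 1 of the 9. In the EC, 426 genes and 2 of the 9 were called. DESeq2 called 1141, no filter on low counts 275 and 1, a replicate block 36 and 1, and removal of GC and length 141 and 0. Leaving out 1 mouse gave 90 (Ts65Dn replicate 1) to 685 genes (Ts65Dn replicate 6) and 1 to 2 of the 9. Under the block Calb1 kept its EC call (edgeR adjusted p = 0.0421) and Plk5 lost it (adjusted p = 0.0931). Same-numbered wt and Ts65Dn mice are different animals whose deviations correlated at -0.198 to 0.166, so the numbers do not pair them. DESeq2 gave no adjusted p in the EC for C1ql2, Dsp and Tdo2. For the interaction, no filter gave 37 genes and 1 of the 9, Dsp. With GC and length removed 4 Prox1 relations passed by r and 3 by rho, against 2 and 2. Without the mouse labelled Ts65Dn replicate 3, C1ql2 in the EC also passed by rho (-0.791, permutation adjusted p = 0.0352) but not by r (-0.702, 0.0623). DESeq2 called Stxbp6 between regions in Ts65Dn (adjusted p = 0.0434), as did edgeR without a filter (0.00859), and Plk5 lost that call without the mouse term (0.0646) and without the mouse labelled Ts65Dn replicate 3 (0.0963). The cause of these shifts was not tested.

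Several uncalled values near 0 changed sign. Without 1 mouse these were Dsp (-0.210 to 0.0818) and Pdzd2 (-0.114 to 0.0380) in the HIP, C1ql2 in the EC (-0.266 to 0.0608), and the interaction of Calb1 (-0.0345 to 0.0537) and Stxbp6 (-0.0561 to 0.152). With GC and length removed Pdzd2 in the EC was at -0.00158, and r with Prox1 was -0.152 for Calb1 in the HIP, -0.0642 for Tdo2 in the EC and -0.0897 for Calb1 in the EC. Without a filter the interaction of Calb1 was -0.00297. Without the 2 farthest mice r was -0.260 for C1ql2 in the HIP and -0.0217 for Calb1 in the EC. The region calls of Prox1, C1ql2, Dsp, Tdo2, Glis3, Pdzd2 and Calb1 held in every fit run. Counts of 11 to 70 reads limit the EC values of C1ql2, Dsp and Tdo2.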
